A study of Caenorhabditis elegans with 59 samples.

Results

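The mRNA of fertile young adults that carry an auxin-inducible degron at HSF-1 was compared with that of control animals without the degron, both after 8 h on auxin, in 6 of the 59 RNA-seq samples of the study. The 6 libraries were chosen by strain, agent and time point alone: 3 from JTL611 (hsf-1::aid::gfp on chromosome I, ieSi57[eft-3p::TIR1::mRuby] on II, unc-119(ed3) on III) and 3 from CA1200, which has the same ieSi57 and unc-119(ed3) alleles but no tag at hsf-1. All animals were grown at 20 °C for 51 h from synchronized L1 larvae, and about 120 were then picked to plates with auxin. The same strains on ethanol plates (mock, 3 libraries each at 8 h) gave the strain difference without auxin, and 3 libraries of each strain on auxin for 24 h gave the same comparison at a later time. The study calls the CA1200 libraries biological replicates. For JTL611 the labels give replicate numbers without saying what separates them, so p-values measure the spread between these libraries.

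HSF-1 is the transcription factor that drives chaperone genes during heat shock, and in animals without heat stress it also binds the promoters of constitutively expressed chaperones. Chaperones act in chains: J-domain proteins hand clients to HSP70, and HSP70 passes some of them to HSP90 or to the ring-shaped chaperonin CCT, which folds actin and tubulin. In the degron system the plant F-box protein TIR1 binds a tagged protein when auxin is present and sends it to the proteasome. Here TIR1 is made from the eft-3 promoter in the soma, so HSF-1 of the germline is not targeted, while RNA was taken from whole animals, in which germ cells contribute much of the mRNA. In such samples, fewer cells of a type and less RNA per cell cannot be told apart. Auxin acts on the protein, so the mRNA of hsf-1 does not measure depletion.

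Between 16370450 and 16950907 reads fell on the 10763 listed genes in the JTL611 auxin libraries, against 17036696 to 20156043 in the CA1200 auxin libraries. Levels are CPM (reads scaled to a common library size) with the authors' log2 scale and prior count undone, and 3 reads correspond to 0.160 to 0.191 CPM in JTL611 with auxin and 0.152 to 0.174 CPM in CA1200 with auxin. Ribosomal RNA took 6.004% to 11.3% of the reads in JTL611 with auxin and 5.45% to 7.80% in CA1200 with auxin, with the highest share in replicate 3 of both strains. The body wall muscle genes myo-3, unc-54 and unc-22 summed to 160, 1624 and 775 CPM in JTL611 with auxin (replicates 1, 2 and 3), against 196, 625 and 922 CPM in CA1200 with auxin. Replicate 1 was therefore low in muscle mRNA in both strains, and such shared differences were taken out by fitting the replicate number as a block. Values were available for 6 of 7 intestine, 3 of 6 hypodermis, 8 of 9 neuron, 3 of 4 body wall muscle and 4 of 4 pharynx markers. These markers had reads in every library, as did the oocyte and sperm genes with values. Genes with few reads had been left out by the authors, so such detection says little. In mock CA1200, 24 oogenic genes summed to 15821, 21155 and 20396 CPM (replicates 1, 2 and 3). The 12 mitochondrially encoded genes summed there to 7757, 5417 and 5845 CPM. Replicate 1 of mock CA1200 thus stood apart, and mock comparisons include it unless a library is left out. Between the mock-treated strains, the median log2 difference of 60 sperm genes was -1.91, 0.25 and 1.05 by replicate.

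Of 10739 genes tested, 1 was called differentially expressed (limma adjusted p under 0.05 with mean expression no lower than 2 CPM, fitted with the replicate block and with Benjamini-Hochberg adjustment over all genes tested), which is 0.00931% of the genes. Before adjustment, p was under 0.05 for 288 genes that were higher in JTL611 with auxin (2.68%) and 394 that were lower (3.67%), together 682 (6.35%), where 537 correspond to a rate of 0.05. This count was 254 without replicate 1 of CA1200 with auxin, 282 without replicate 1 of JTL611 with auxin and 1785 without replicate 2 of CA1200 with auxin. The 3 JTL611 auxin libraries lay outside the range of the 3 CA1200 auxin libraries for 522 genes on the higher side (4.86%) and 629 on the lower side (5.86%). The counts below for gene groups are read against these percentages, since no single chaperone gene passed the adjusted threshold.

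hsf-1 itself (WBGene00002004, chromosome I from 11953507 to 11963085, WBcel235) had 31.1, 48.9 and 43.2 CPM in JTL611 with auxin, against 64.1, 60.1 and 63.9 CPM in CA1200 with auxin. All 3 JTL611 values were below the lowest CA1200 value. The log2 fold change was -0.64 (standard error 0.16, limma adjusted p = 0.700). In the mock libraries hsf-1 had 50.6, 53.98 and 39.9 CPM in JTL611 and 39.3, 62.8 and 56.1 CPM in CA1200, with overlap. At 24 h the auxin libraries of both strains overlapped too, at 64.6, 69.8 and 60.3 CPM in JTL611 and 57.1, 72.6 and 87.0 CPM in CA1200. The transcript that encodes the tagged factor was thus still present at 8 h of auxin, at a mean of 41.05 ± 9.09 CPM in JTL611 against 62.7 ± 2.24 CPM in CA1200 (SD, n = 3 each).

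From the fertile strains used here, the study had already reported genes with an HSF-1 peak at the promoter and lower mRNA after depletion. With edgeR it called more genes after the longer treatment than were called here. It drew a larger list of HSF-1 targets from germline-less glp-1(e2141) adults, by lower mRNA after depletion and by an HSF-1 peak at the promoter. This larger list is the one used below. The peaks came from the authors' earlier work on whole young adults. These targets were lower as a group in the fertile animals. Of the 28 genes on that list, 22 are among the genes of the 8 h table and all 22 were tested. The other 6 belong to the stress-inducible small heat shock family hsp-16 and have no value in this table. All 22 had a negative log2 fold change (median -0.38, from -1.74 to -0.05), against a median of 0.00 over all genes tested. Before adjustment, p was under 0.05 for 19 on the lower side and 0 on the higher side, where 3.67% of all genes were lower at that level, and 18 of the 22 were lower without overlap of the groups. The median over the 22 genes was -0.57 in the replicate 1 pair, -0.38 in the replicate 2 pair and -0.25 in the replicate 3 pair, and 19 genes were lower in every pair. Summed over the list, levels were 8479, 11239 and 11991 CPM in JTL611 with auxin against 15656, 16338 and 15107 CPM in CA1200 with auxin. The list was drawn up by the study from other libraries of the same series, and without replicate 1 of JTL611 with auxin 17 of its genes were at that level, with a median of -0.29.

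**Figure D1:**
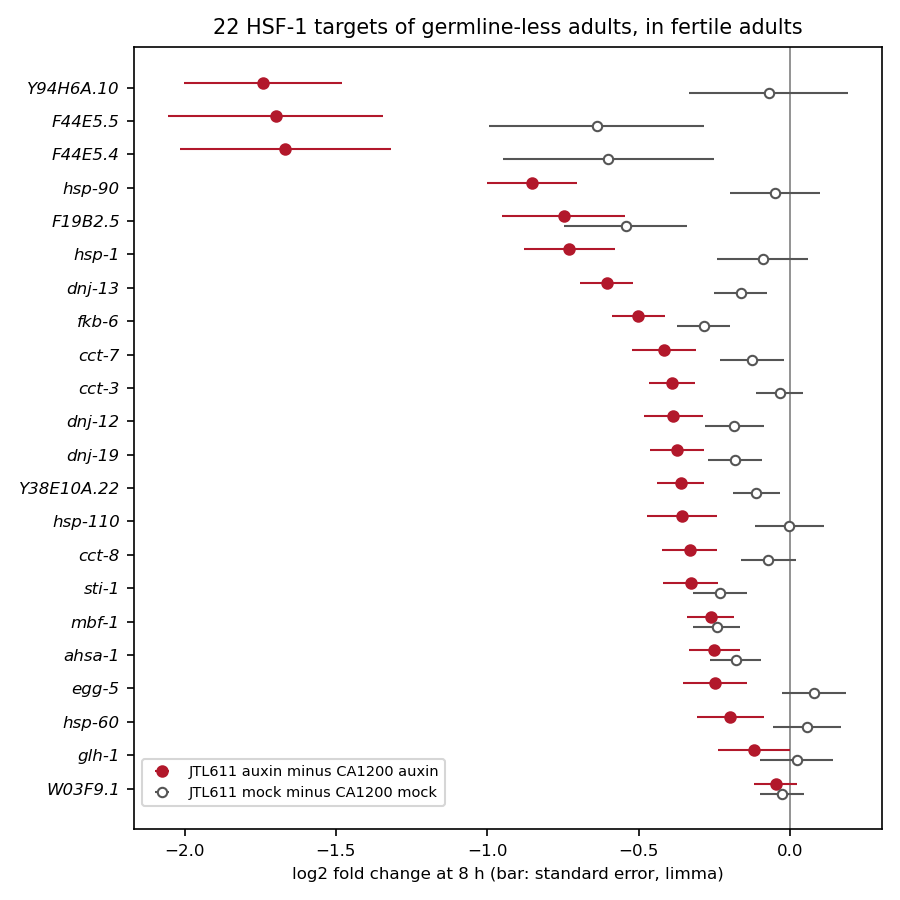
log2 fold change (x axis, with limma standard errors as bars) of the 22 HSF-1 target genes at 8 h, for JTL611 auxin minus CA1200 auxin (filled) and JTL611 mock minus CA1200 mock (open). All 22 filled points lie below 0, from -1.74 to -0.05, while the open points run from -0.64 to 0.08.

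The cytosolic HSP90 gene hsp-90 (WBGene00000915, chromosome V) and the constitutive HSP70 gene hsp-1 (WBGene00002005, chromosome IV) supply the main cytosolic chaperones of the unstressed cell. hsp-90 had 2342, 2791 and 3480 CPM in JTL611 with auxin, against 5203, 5289 and 4864 CPM in CA1200 with auxin. hsp-1 had 2058, 3162 and 3518 CPM in JTL611 with auxin, against 4546, 5015 and 4567 CPM in CA1200 with auxin. Neither gene had overlapping groups, and replicate 1 of JTL611 was the lowest library for both. The log2 fold changes were -0.85 (standard error 0.15, limma adjusted p = 0.156) for hsp-90 and -0.73 (standard error 0.15, limma adjusted p = 0.337) for hsp-1. In the mock libraries hsp-90 had 5101, 4522 and 4640 CPM in JTL611 and 4742, 4984 and 5028 CPM in CA1200, so these groups overlapped, and all 3 JTL611 auxin libraries lay below every mock library.

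HSP90 works with a set of co-chaperones that load clients and set the speed of its ATPase. Of the 10 genes on this list, hsp-90 included, 4 were lower at an unadjusted p under 0.05 and 0 higher, and the median was -0.15. All 4 are also on the list of HSF-1 targets above, so they are not further genes. The 4 were hsp-90, the FKBP-type prolyl isomerase fkb-6 (log2 fold change -0.50, standard error 0.09, limma adjusted p = 0.156), the HSP70-HSP90 adaptor sti-1 (-0.33, standard error 0.09) and the activator of the HSP90 ATPase ahsa-1 (-0.25, standard error 0.08). fkb-6 had 278, 290 and 317 CPM in JTL611 with auxin against 421, 440 and 391 CPM in CA1200 with auxin, without overlap. It was also lower between the mock-treated strains, with 385, 345 and 333 CPM in JTL611 against 448, 421 and 426 CPM in CA1200. The kinase-loading factor cdc-37, the p23 homologue daf-41 and the myosin chaperone unc-45 had log2 fold changes of -0.13, -0.11 and -0.05 with overlapping groups.

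Among the 8 genes listed for cytosolic HSP70 and its cofactors, 6 were lower at an unadjusted p under 0.05 and 0 higher, with a median of -0.36. Of these 6, all except hip-1 are also on the target list. The HSP110 gene hsp-110, a nucleotide exchange factor of HSP70, had 469, 734 and 645 CPM in JTL611 with auxin against 781, 804 and 742 CPM in CA1200 with auxin, without overlap. The HSC70-interacting protein gene hip-1 had a log2 fold change of -0.27, while bag-1, another nucleotide exchange factor, stood at 0.13 with overlap. The inducible HSP70 genes F44E5.4 and F44E5.5 had the largest log2 fold changes of the list, -1.67 and -1.70, at levels of a few reads. F44E5.4 had 0.267, 0.243 and 0.191 CPM in JTL611 with auxin, against 0.696, 0.964 and 1.41 CPM in CA1200 with auxin. These neighbours on chromosome II are near-identical copies that had equal values in all 3 JTL611 auxin libraries, so they do not count as independent genes, and with a pseudocount of 1 CPM the log2 fold change of F44E5.4 was -0.70.

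Of 29 J-domain genes tested, 3 were lower and 1 was higher at an unadjusted p under 0.05, and the median of -0.01 was close to that of all genes. The 3 lower members, dnj-13, dnj-12 and dnj-19, encode the cytosolic partners of HSP70, and all 3 are also on the target list. dnj-13 (WBGene00001031, chromosome II from 11545701 to 11547360) had 140, 162 and 185 CPM in JTL611 with auxin, against 243, 257 and 237 CPM in CA1200 with auxin. Its log2 fold change of -0.61 (standard error 0.09) had the smallest adjusted p of the chaperone genes, 0.0823 in limma. dnj-13 in mock-treated animals was at 219, 221 and 216 CPM in JTL611 and 237, 248 and 248 CPM in CA1200, so the groups did not overlap there either, at a log2 fold change of -0.16. dnj-12 and dnj-19 had log2 fold changes of -0.39 and -0.37 with auxin, and dnj-4 was higher at 0.42.

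The chaperonin CCT is a ring of 8 different subunits, and all 8 genes were lower at an unadjusted p under 0.05 and without overlap of the groups. Their log2 fold changes lay between -0.42 and -0.24 (median -0.33), a narrow range. Of the 8, cct-3, cct-7 and cct-8 are also on the target list. cct-3 had 147, 168 and 158 CPM in JTL611 with auxin, against 210, 215 and 194 CPM in CA1200 with auxin (log2 fold change -0.39, standard error 0.08, limma adjusted p = 0.304). cct-7, at 226, 333 and 314 CPM in JTL611 with auxin against 379, 401 and 369 CPM in CA1200 with auxin, had the largest difference of the subunits. In every one of the 3 pairs all 8 subunits were lower, with medians of -0.47, -0.28 and -0.18. Between the mock-treated strains 0 of the 8 reached that p and the median was -0.14, with pair medians of -0.06, -0.16 and -0.19 and with 6 of the 8 lower in every pair. The difference of the strain differences (with auxin minus without) was negative for all 8 CCT genes (median -0.19), and 1 of them had an unadjusted p under 0.05, where 6.55% of all genes were lower at that level. Leaving out 1 of the 6 auxin libraries left 6 to 8 subunits at that level.

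**Figure D2:**
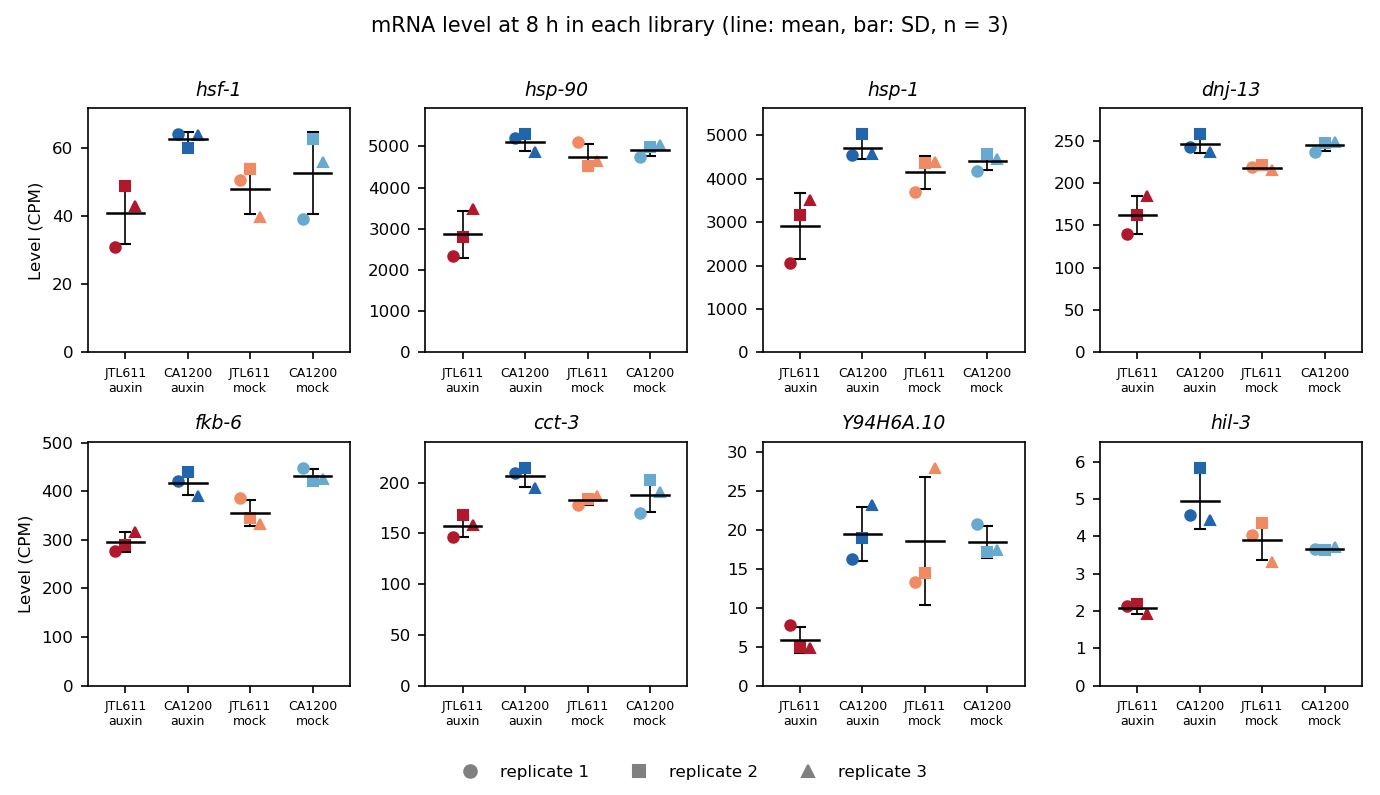
Level in CPM (y axis) of hsf-1, 6 HSF-1 target genes and the linker histone gene hil-3 in each of the 12 libraries at 8 h, by strain and agent (points: replicates 1 to 3, line: mean, bar: SD). For every gene shown, the 3 JTL611 auxin libraries lie below the 3 CA1200 auxin libraries.

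Other chaperone systems had few or no members at that level. The prefoldin complex, which delivers clients to CCT, had 0 of 6 genes at an unadjusted p under 0.05 and a median of 0.01. The small heat shock proteins outside hsp-16 had 0 of 6, among them the embryonic sip-1 at a log2 fold change of -0.05 and a mean of 1100 CPM. Of 11 genes of mitochondrial chaperones and proteases, hsp-6 was lower (log2 fold change -0.26) with overlap, and the chaperonin gene hsp-60, which is on the target list, stood at -0.20 with 283, 458 and 383 CPM in JTL611 with auxin against 420, 436 and 408 CPM in CA1200 with auxin. Of 18 ER chaperone and unfolded protein response genes, the kinase gene pek-1 was lower (-0.40), and the median was -0.07. The proteasome had 1 of 33 genes lower (rpn-1, -0.29) and a median of 0.00, and the cytosolic ribosome had 0 of 78 and a median of 0.01.

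Non-chaperone members of the target list differed among themselves. Y94H6A.10 (WBGene00022382, chromosome IV from 2710121 to 2710666), a short protein-coding gene with no named product, had 7.79, 4.93 and 4.77 CPM in JTL611 with auxin against 16.2, 18.98 and 23.2 CPM in CA1200 with auxin. Its log2 fold change was the lowest of the list, -1.74 with a standard error of 0.26 and a limma adjusted p of 0.0852. Y94H6A.10 in mock-treated animals overlapped between the strains, with 13.3, 14.4 and 28.003 CPM in JTL611 and 20.8, 17.2 and 17.4 CPM in CA1200. mbf-1, the gene of a transcriptional co-activator, stood at -0.26, and egg-5, which acts at the oocyte-to-embryo transition, at -0.25. The P granule helicase gene glh-1 overlapped between the groups at 717, 1097 and 907 CPM in JTL611 with auxin and 980, 977 and 953 CPM in CA1200 with auxin.

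The strain difference without auxin was smaller for the target list. In JTL611 against CA1200 on ethanol, 4 of the 22 genes were lower at an unadjusted p under 0.05 and 0 higher, where 2.34% of all genes were lower at that level, and the median was -0.12. The log2 fold change without auxin was negative for 19 of the 22 and positive for 3. In all 3 mock pairs 11 of the 22 were lower and 0 higher, against 1650 lower and 1396 higher of all 10739 genes. The difference between the strain differences (with auxin minus without) was negative for all 22, with a median of -0.26 against 0.02 over all genes, and 6 reached an unadjusted p under 0.05 on the lower side, where 6.55% of all genes did. The 24 oogenic genes had a similar median of -0.25 in this difference (23 negative and 1 positive, 6 lower at that p). How far oogenic mRNA entered the target values was not tested. None of the 22 targets passed the adjusted threshold in this test. For hsp-90 this difference was -0.80 (standard error 0.21), for hsp-1 -0.64 (standard error 0.21), for dnj-13 -0.44 (standard error 0.13) and for Y94H6A.10 -1.67 (standard error 0.37), while for mbf-1 it was -0.02 (standard error 0.11) and for sti-1 -0.10 (standard error 0.13). Auxin against mock within each strain shares its auxin libraries with the main comparison. Within JTL611 the median of the 22 genes was -0.22 (13 lower at an unadjusted p under 0.05, where 1.02% of all genes were), and within CA1200 it was 0.03 (0 lower at that p, where 6.57% were).

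**Figure D3:**
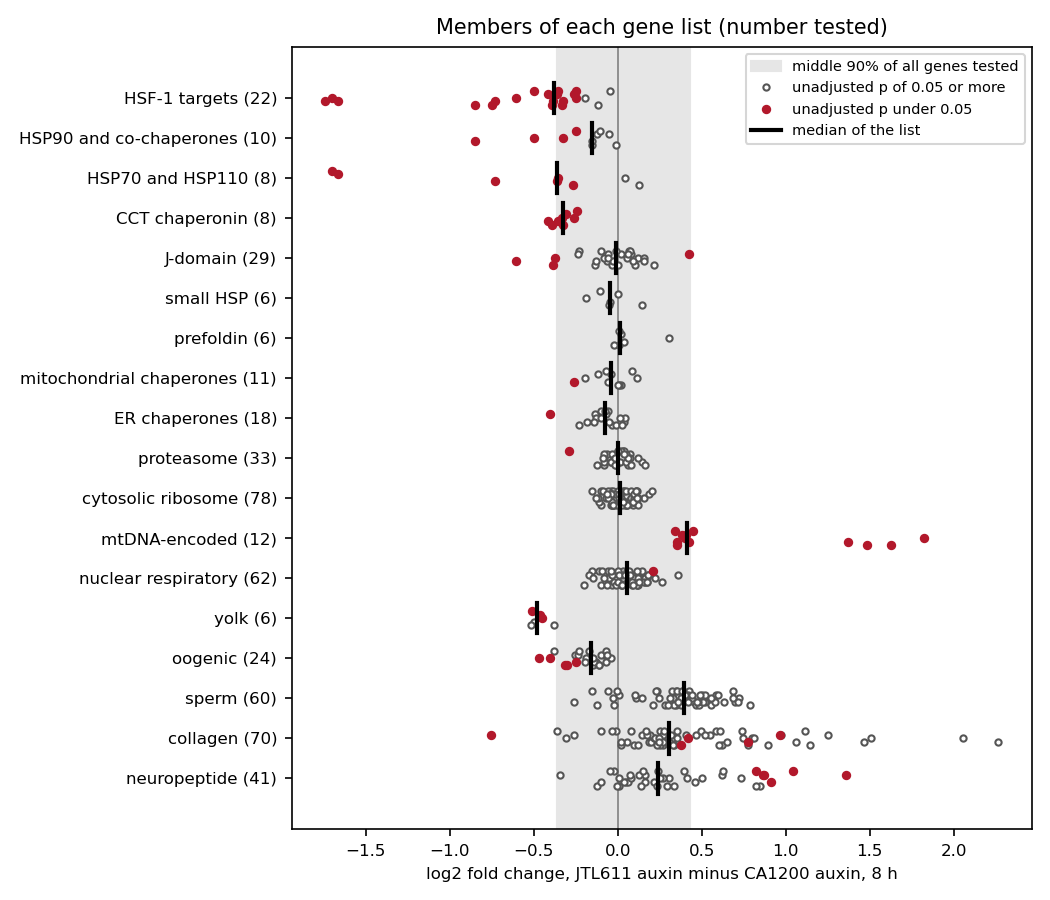
log2 fold change at 8 h (x axis, JTL611 auxin minus CA1200 auxin) of every tested member of 18 gene lists (rows; number of members in brackets), with members at an unadjusted p under 0.05 filled and the list median as a bar; the grey band spans the middle 90% of all genes tested. All 8 CCT genes and 19 of the 22 HSF-1 targets are filled on the lower side, and all 12 mtDNA-encoded genes on the higher side.

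On the higher side, the genes of the mitochondrial genome stood together. These 12 genes encode subunits of respiratory complexes I, III and IV and of the ATP synthase. All 12 were higher in JTL611 with auxin at an unadjusted p under 0.05, where 2.68% of all genes were higher at that level, and all 12 were without overlap of the groups. Since all 12 belong to the same small genome, they may not be independent measurements. The median log2 fold change was 0.41, from 0.34 to 1.82. Summed over the 12 genes, levels were 7628, 7121 and 6764 CPM in JTL611 with auxin against 5330, 5647 and 5328 CPM in CA1200 with auxin. Of 62 nuclear genes of the respiratory chain, 1 was higher and 0 lower at that p, with a median of 0.06. Leaving out 1 of the 6 auxin libraries left 7 to 12 of them at that level: without replicate 1 of CA1200 with auxin, 7 of the 12 mitochondrial genes were at that level, with a median of 0.39.

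The 12 genes split by size of the difference. The complex I genes ND2, ND6, ND4L and ND3 had log2 fold changes of 1.63, 1.37, 1.82 and 1.49 (standard errors 0.23, 0.21, 0.32 and 0.31), and ND2 had the smallest adjusted p of them, 0.0690 in limma. ND2 had 40.8, 53.8 and 47.6 CPM in JTL611 with auxin, against 17.8, 16.2 and 12.2 CPM in CA1200 with auxin. The other 8 genes lay between 0.34 and 0.45. COX1, a catalytic subunit of complex IV, had 2228, 2536 and 2164 CPM in JTL611 with auxin against 1664, 1888 and 1745 CPM in CA1200 with auxin, and CYTB of complex III had 1358, 1210 and 1201 CPM in JTL611 with auxin against 1003, 991 and 957 CPM in CA1200 with auxin. Both differences are larger than the spread within either group.

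The mock libraries gave the 4 complex I genes the opposite order. ND2 had 19.3, 29.2 and 30.2 CPM in mock-treated JTL611, against 57.6, 35.6 and 39.99 CPM in mock-treated CA1200, a log2 fold change of -0.75. Mock CA1200 levels of ND2 thus resembled those of JTL611 with auxin, and mock JTL611 levels lay between those and CA1200 with auxin. For ND6, ND4L and ND3 the log2 fold changes between the mock-treated strains were -0.80, -1.41 and -1.25, again with 3 JTL611 libraries below 3 CA1200 libraries. With auxin minus without, the differences were 2.38 for ND2, 2.17 for ND6 and 3.24 for ND4L (limma adjusted p = 0.0804 for all 3, the smallest of this test), and 2.73 for ND3. Without replicate 2 of mock CA1200, ND2, ND3 and ND4L passed the adjusted threshold in this test. Between the mock-treated strains these 4 were the only ones of the 12 at an unadjusted p under 0.05, and the median of the 12 was -0.09. Auxin against mock uses the same auxin libraries: within JTL611 all 12 mitochondrial genes had a positive log2 fold change (5 at that p, where 2.26% of all genes were higher), and within CA1200 all 12 had a negative one (5 at that p, where 6.57% were lower). Within CA1200, ND2, ND6 and ND4L passed the adjusted threshold, with log2 fold changes of -1.51, -1.37 and -2.06 for auxin against mock (limma adjusted p = 0.0468 for each), where 0.0279% of all genes were called lower. ND6 and ND4L share a base at position 549 of the mitochondrial genome, so reads across their border may count for either. ND3 and ND5 likewise share a base, at position 11691.

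**Figure D4:**
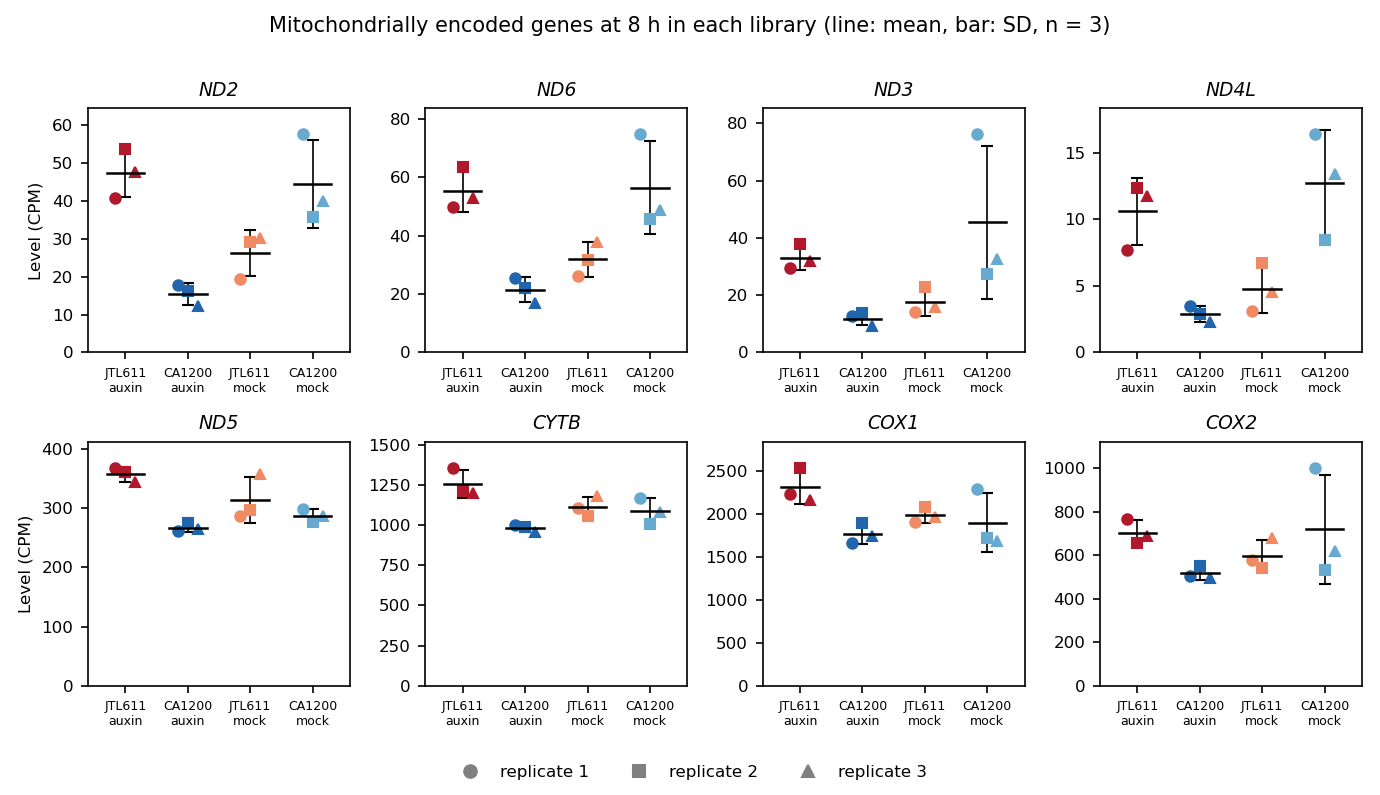
Level in CPM (y axis) of 8 of the 12 mitochondrially encoded genes in each library at 8 h, by strain and agent (points: replicates 1 to 3, line: mean, bar: SD). The 3 JTL611 auxin libraries lie above the 3 CA1200 auxin libraries for each gene, and ND2, ND6, ND3 and ND4L are lower in mock JTL611 than in mock CA1200.

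Among genes of the reproductive system, yolk and oogenic genes had negative medians and sperm genes a positive one. The 6 yolk protein genes, expressed in the intestine and taken up by oocytes, had a median of -0.48, and 3 were lower at an unadjusted p under 0.05. vit-5 had 4485, 9026 and 7341 CPM in JTL611 with auxin, against 10423, 9663 and 8573 CPM in CA1200 with auxin, with overlap. The medians of the 6 genes in the 3 pairs were -1.19, 0.02 and -0.22, with the largest in replicate 1. All 24 oogenic genes had a negative log2 fold change (median -0.16), 5 of them at an unadjusted p under 0.05, with pair medians of -0.24, -0.09 and -0.16. mex-5, a maternal RNA-binding protein gene, had 494, 816 and 705 CPM in JTL611 with auxin against 846, 889 and 878 CPM in CA1200 with auxin. Of 60 sperm genes 53 had a positive log2 fold change (median 0.39), 0 reached that p, and the pair medians were 0.51, 0.87 and -0.13. Several sperm and yolk genes are near-identical copies, so their members are not independent measurements.

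In the soma, collagen and neuropeptide genes had positive medians. Of 70 collagen genes, which build the cuticle, 4 were higher and 1 was lower at an unadjusted p under 0.05 (median 0.31), and col-106 overlapped between the groups with 723, 990 and 903 CPM in JTL611 with auxin against 487, 683 and 810 CPM in CA1200 with auxin. Of 41 neuropeptide genes, 6 were higher and 0 lower (median 0.24), and the 6 had means between 0.79 and 1.59 CPM over the 12 libraries. Summed neuron markers were 181, 196 and 188 CPM in JTL611 with auxin and 169, 180 and 183 CPM in CA1200 with auxin, and summed intestine markers were 1924, 2595 and 2494 CPM in JTL611 with auxin and 2948, 2951 and 2650 CPM in CA1200 with auxin. The part of such marker differences in the results on chaperones was not tested. The 21 muscle genes had a median of 0.27 (3 higher and 1 lower at that p) with pair medians of 0.06, 0.82 and -0.12, and the actin gene act-2 stood at -0.37. Families of detoxification and defence genes (cytochrome P450, P-glycoproteins, C-type lectins, pals and antimicrobial genes) had at most 3 members each at that level, and the 73 glutathione and glucuronosyl transferase genes had 3 higher and 5 lower (median 0.04), with 8 higher and 1 lower without overlap.

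Among the genes without overlap and with the smallest p outside the chaperone and mitochondrial lists was a linker histone gene. This gene, hil-3 (WBGene00001854, chromosome X) had 2.14, 2.19 and 1.91 CPM in JTL611 with auxin, against 4.58, 5.84 and 4.44 CPM in CA1200 with auxin (log2 fold change -1.20, standard error 0.16, limma adjusted p = 0.0613). hil-3 in mock-treated animals overlapped, at 4.04, 4.36 and 3.30 CPM in JTL611 and 3.65, 3.64 and 3.71 CPM in CA1200. Of the 35 histone genes tested, 3 were lower and 0 higher at an unadjusted p under 0.05, with a median of -0.01. The germ granule genes mip-2 and simr-1, whose products act in germ granules and small RNA pathways, had log2 fold changes of -0.51 (limma adjusted p = 0.156) and -0.48 (limma adjusted p = 0.337) without overlap. mip-2 was at 117, 149 and 140 CPM in JTL611 with auxin against 190, 195 and 191 CPM in CA1200 with auxin. On the higher side, gst-4, a glutathione transferase gene often used as an oxidative stress reporter, had 10.2, 10.3 and 10.7 CPM in JTL611 with auxin against 7.54, 6.34 and 7.62 CPM in CA1200 with auxin (log2 fold change 0.54, limma adjusted p = 0.535). In the mock it was also higher in JTL611 without overlap, at a log2 fold change of 0.15. Auxin against mock gave 0.28 in CA1200 and 0.67 in JTL611 for gst-4, both without overlap. At 24 h gst-4 stood at -0.02 between the strains with auxin, with overlap.

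The 1 called gene, ZK938.3 (WBGene00014160, chromosome II from 9831521 to 9833955), differed between the strains regardless of auxin. It had 53.6, 49.8 and 60.8 CPM in JTL611 with auxin, against 12.9, 13.1 and 21.4 CPM in CA1200 with auxin (log2 fold change 1.82, standard error 0.14, limma adjusted p = 0.000535). ZK938.3 in mock-treated animals had 51.3, 53.1 and 65.5 CPM in JTL611 and 11.1, 15.9 and 20.3 CPM in CA1200 (log2 fold change 1.87, limma adjusted p = 0.000410, the 1 call between the mock-treated strains). The difference between these log2 fold changes was -0.05 (standard error 0.19). The log2 fold change with auxin was 1.82 without the block as well, at a limma adjusted p of 0.0588 (over all alternatives from 0.000357 to 0.222), so that the call depends on the block and on fitting all 12 libraries together. ugt-64, a glucuronosyltransferase gene, was lower in JTL611 in both conditions, with 36.2, 40.6 and 27.7 CPM with auxin against 72.3, 52.1 and 60.4 CPM in CA1200 with auxin, and with log2 fold changes of -0.83 with auxin and -0.72 in the mock.

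Few of the genes at an unadjusted p under 0.05 with auxin were also there between the mock-treated strains. Of the 288 higher genes 15 were also higher in the mock at that p (5.21%, against 1.83% of all genes), and of the 394 lower genes 15 were also lower in the mock (3.81%, against 2.34% of all genes). The median log2 fold change of the 394 lower genes was -0.36 with auxin and 0.09 in the mock. Median values of the 288 higher genes were 0.45 with auxin and 0.00 in the mock. Both sets were picked by p and sign with auxin, so larger medians with auxin than in the mock follow at least in part from that choice. The p-values with auxin and in the mock came from a joint fit with a shared estimate of the spread, so the overlaps are not independent.

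The comparison at 24 h used other libraries and a table normalized separately, so values are set side by side and no test was run between the times. At 24 h 8 genes were called (0.0781%), a count that ranged from 2 (without replicate 1 or 2 of CA1200 or replicate 1 of JTL611, all with auxin) through 6 (without replicate 2 of JTL611) and 35 (without replicate 3 of CA1200) to 213 (without replicate 3 of JTL611). All 22 targets had a negative log2 fold change at 24 h too, from -2.68 to -0.003 for glh-1, whose groups overlapped (median -0.42 against 0.01 over all genes), and 16 were lower at an unadjusted p under 0.05, where 6.59% of all genes were lower at that level. Without overlap of the groups, 12 of the 22 were lower at 24 h, against 351 of the 10245 genes tested. hsp-90 stood at -0.85 at 8 h and -0.79 at 24 h, hsp-1 at -0.73 and -0.60, and dnj-13 at -0.61 and -0.66. The groups of hsp-1 overlapped at 24 h, with 1720, 3137 and 4345 CPM in JTL611 with auxin against 3387, 4269 and 5590 CPM in CA1200 with auxin. sti-1 stood at -0.33 at 8 h and -0.66 at 24 h, and ahsa-1 at -0.25 and -0.49, with 287, 254 and 290 CPM in JTL611 with auxin against 347, 333 and 307 CPM in CA1200 with auxin at 8 h. hsp-110 stood at -0.36 at 8 h and -0.02 at 24 h, where its groups overlapped. Y94H6A.10 was called at 24 h (log2 fold change -2.68, limma adjusted p = 0.0324), with 10.8, 9.49 and 6.83 CPM in JTL611 with auxin against 205, 55.4 and 16.8 CPM in CA1200 with auxin, whose libraries differed widely among themselves.

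Of the 12 mitochondrial genes, 1 (ND4L) was higher at 24 h at an unadjusted p under 0.05, where 5.12% of all genes were, and the median was 0.05 against 0.41 at 8 h. At 24 h 7 of the 12 had a positive log2 fold change and 5 a negative one. ND4L, ND3, ND2 and ND6 stood at 1.03, 0.54, 0.38 and 0.38, all with overlapping groups. ND2 at 24 h had 40.5, 27.2 and 17.2 CPM in JTL611 with auxin and 31.1, 30.9 and 8.79 CPM in CA1200 with auxin. The CCT genes were lower at both times, with medians of -0.33 at 8 h and -0.37 at 24 h. At 24 h, 7 of 8 were at an unadjusted p under 0.05 and 5 of 8 were lower without overlap of the groups. Over the 9980 genes tested at both times, 388 were lower at 8 h at that p, of which 263 (67.8%, against 48.5% of all genes) had a negative log2 fold change at 24 h and 79 (20.4%) also reached that p on the lower side, against 6.66% of all genes. Of 252 higher genes, 154 (61.1%, against 51.5% of all genes) had a positive log2 fold change at 24 h and 33 (13.1%) reached that p on the higher side, against 5.01% of all genes. The 79 genes were 11.9% of those lower at that p at 24 h, and the 33 were 6.60% of those higher.

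**Figure D5:**
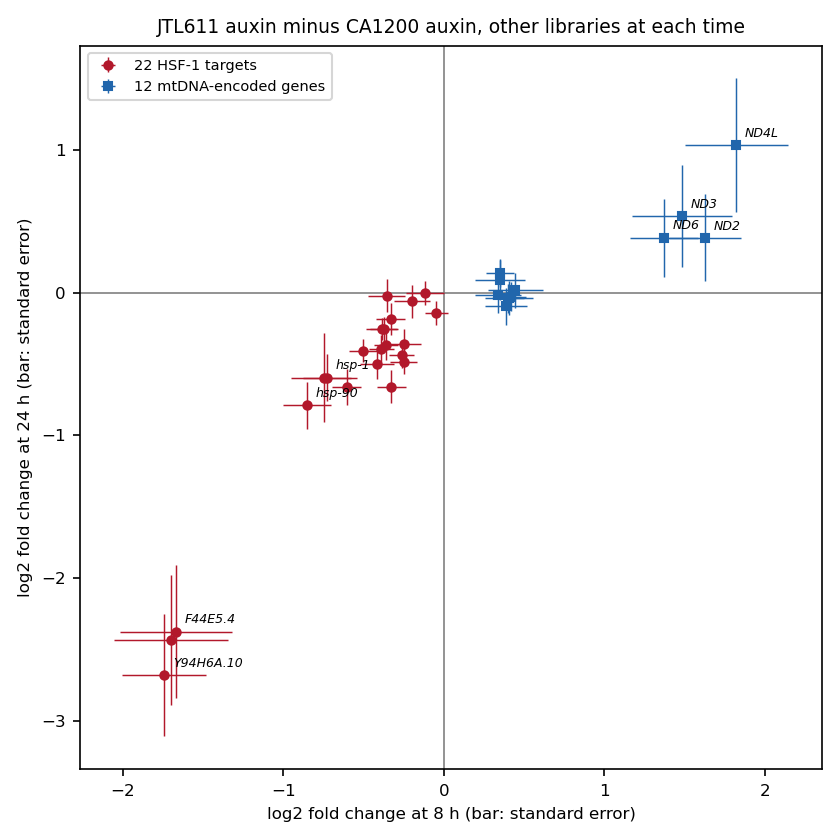
log2 fold change of JTL611 auxin minus CA1200 auxin at 8 h (x axis) and at 24 h (y axis, other libraries), with standard errors, for the 22 HSF-1 targets (circles) and the 12 mtDNA-encoded genes (squares). The targets lie below 0 on both axes. The mitochondrial genes lie above 0 at 8 h and on both sides of 0 at 24 h. ND4L is at 1.03, ND3 at 0.54 and ND2 and ND6 at 0.38 at 24 h.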

How the data were processed

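Poly(A)-enriched RNA was made into directional libraries and sequenced in pairs by the authors, who per the submitters' processing notes used STAR, featureCounts and edgeR (versions not given in the sources used here) with build WBcel235. The deposited tables hold the authors' log2 CPM per gene with a prior count of 0.114 CPM (2 reads) at 8 h, each normalized over the 12 libraries of its time point, and genes with few reads had been left out by the authors. Undoing the log2 scale and the prior gave whole reads for 100% of the 8 h values (tolerance 0.05 reads). Gene names and coordinates came from the Ensembl 115 annotation of WBcel235, which holds 10758 of the 10763 IDs. No sequence is shown, and sequences were not used here.

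Differences were tested on the deposited log2 values with limma 3.58.1 (R 4.3.3; lmFit and eBayes with a mean trend), with all 12 libraries of the time point, group and replicate number as terms, and Benjamini-Hochberg adjustment over the 10739 genes that reached 1 CPM in 25% or more of the libraries. Count tests had been planned and were left out, since the values come as log2 CPM. limma-voom on the recovered reads was run instead. Log2 fold changes of low genes are understated by the prior count. A no-overlap call means that all 3 values of one group lie beyond all 3 of the other. SDs are over 3 libraries. Reads copied by PCR are not independent molecules, so limits of 3 reads cover counting error only. The fit was tried on simulated data in which same-numbered libraries shared a replicate effect. Such a trial cannot show whether the block suits these data.

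The replicate number was used as a block because same-numbered auxin libraries deviated together at 8 h (correlations 0.446, 0.108 and 0.151, criterion 0.1) and at 24 h (0.643, 0.207 and 0.570). Replicate 2 of the auxin libraries nevertheless correlated best with replicate 3 at both times. The mock libraries at 8 h did not meet it (0.165, 0.593 and -0.123). The block is taken from the labels' replicate numbers, which do not say what a number shares.

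Members and gene lists were chosen with earlier results of these data known. The lists of mitochondrial and nuclear respiratory genes were respelled to the annotation's symbols after the tables were read. Named genes were hsf-1, the 28 listed targets, the 12 genes highest and the 12 lowest without overlap (by smallest unadjusted p where fewer were called), and up to 4 members of each list by unadjusted p. Other genes were named after their values were seen (bag-1, cdc-37, daf-41, unc-45, sip-1 and col-106 among them). Alternatives changed the block, the libraries fitted, the pseudocount, the low-value filters, the centring and the test weights, and left out each library in turn.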

Additional observations from a re-analysis of the deposited data

How the results depend on the processing

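The single call at 8 h with auxin (ZK938.3) was lost without the replicate block, with only the 6 libraries compared and the block, and with only those 6 and no block (0 calls in each), and the single call between the mock-treated strains was lost in the same 3 settings (0 calls in each). Without the block, 259 genes in place of 682 had an unadjusted p under 0.05 with auxin, 145 in place of 447 between mock-treated strains and 324 in place of 1200 at 24 h, where calls went to 0. With 1 library left out, calls ranged from 1 to 2 at 8 h with auxin, the second being the pseudogene WBGene00014955 (adjusted p = 0.0395 in limma) without replicate 3 of CA1200, from 1 to 1 in the mock, from 0 to 3 in the difference of differences and from 2 to 213 at 24 h. The count of mitochondrial genes at an unadjusted p under 0.05 ranged from 7 to 12, of targets from 17 to 20, of CCT genes from 6 to 8 and of lower J-domain genes from 3 to 6. Of 797 alternative values for the log2 fold changes of 47 named genes, 1 changed sign. As only ZK938.3 was called to begin with, the unchanged calls of the other genes say little about stability. The change of sign was that of glh-1, whose log2 fold change was 0.022 without replicate 1 of JTL611 with auxin and -0.21 without replicate 2. The causes were not tested. The planned quasi-likelihood tests with and without the block, the likelihood ratio test and DESeq2 were not run. With 3 libraries a group the median standard error of a log2 fold change was 0.15, and for genes of a few reads, such as F44E5.4, the size depends on the pseudocount.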

Other observations

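At a single place on chromosome V, 3 neighbouring genes had higher values in JTL611 in the 3 strain comparisons given here (auxin and mock at 8 h, auxin at 24 h). The mock comparison at 24 h is not reported here. They lie between 16926922 and 16930063 (WBcel235): Y102A5C.36 and the pseudogenes WBGene00014954 and WBGene00014955. WBGene00014955 had 62.4, 64.01 and 62.9 CPM in JTL611 with auxin, against 29.5, 36.9 and 43.3 CPM in CA1200 with auxin at 8 h. In the mock it had 62.5, 67.2 and 51.9 CPM in JTL611, against 32.0, 35.3 and 31.9 CPM in CA1200. The log2 fold changes of Y102A5C.36, WBGene00014954 and WBGene00014955 were 1.22, 0.57 and 0.80 with auxin at 8 h, 0.83, 0.86 and 0.86 in the mock and 1.49, 1.07 and 1.103 with auxin at 24 h, where all 3 were called by limma (adjusted p = 0.00656, 0.0171 and 0.00311).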
